A study of Mus musculus with 7 samples.

Results

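The 10 genes described here are regulators of whether a cell passes from G1 into S phase. They are the CDK inhibitor genes Cdkn1a, Cdkn1b, Cdkn1c and Cdkn2c, the D cyclin genes Ccnd1, Ccnd2 and Ccnd3, and the pocket protein genes Rb1, Rbl1 and Rbl2. They were chosen by name, as 10 of the 49315 gene identifiers in the count tables, and all 10 had enough counts to be among the 18352 genes tested. RNA was measured by sequencing in primary mouse oligodendroglia from the brains of newborn mice of both sexes, 4 libraries from wildtype controls and 3 from Klf13 knockouts, all after 6 days under differentiating conditions in SATO medium with thyroid hormones. The knockout mice lack Klf13 constitutively in all tissues, so the knockout cultures and the cells they were grown with before shake-off shared the deletion. The labels call the libraries biological replicates without saying whether pups were pooled, so p-values measure the spread between these cultures.

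In G1, D cyclins activate the kinases CDK4 and CDK6, which phosphorylate the pocket proteins and so release E2F factors that switch on S phase genes. INK4 inhibitors such as p18, the product of Cdkn2c, bind these kinases, and the Cip/Kip inhibitors p21, p27 and p57 (Cdkn1a, Cdkn1b and Cdkn1c) also act on the kinases of E and A cyclins. Oligodendrocyte precursor cells (OPCs) leave the cell cycle when they differentiate, and p27 is known to accumulate in them before that step, while p21 has a known part in their differentiation.

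Libraries held 24507471 to 59596479 counts. Klf13 itself had 10669.9 to 12000 normalized counts in controls and 802 to 961 in knockouts, which is -3.69 in log2 fold change (SE 0.09, adjusted p = 6.77e-06 by edgeR's quasi-likelihood (QL) test). Markers of several cell types were detected. The summed level per gene length (RPKM, counts per kilobase of exons scaled to library size) of 6 oligodendrocyte markers was 3797 to 4495 in controls and 1056 to 1185 in knockouts. That of 6 OPC markers was 229 to 267 and 272 to 305. That of 6 astrocyte markers was 468 to 643 and 919 to 1092, and that of 6 neuron markers 51.1 to 64.4 and 90.4 to 144. For 6 microglia and macrophage markers the ranges were 179 to 782 and 181 to 342, with control 3 at the top and the other controls at no more than 195. Summed levels of 6 fibroblast and mural cell markers were 28.9 to 154 and 11.5 to 30.8, with control replicates 3 and 4 highest. Endothelial markers were near 0 throughout, at no more than 3.00 RPKM in sum, and Cldn5 was at 0 in all controls. With bulk RNA, fewer cells of a type and less RNA per cell cannot be told apart, and the part of these shifts in the results below was not tested. The percentage of counts at Lars2, Gm23935 and Gm42418, where ribosomal RNA reads collect, is called the ribosomal share below. It was 14.1% to 18.0% in controls 1 and 4 and knockouts 1 and 3, and 6.03% to 7.56% in controls 2 and 3 and knockout 2.

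Of the 10 genes, 2 were lower in the Klf13 knockout at an adjusted p of at most 0.05, namely Cdkn1a and Ccnd1, and 1 was higher, Cdkn1b. Over all tested genes 12.2% were lower and 11.6% higher by this criterion, 23.8% in all, so 3 of 10 is close to the share of all genes in this fit. With DESeq2, with the replicate number as a block or with the ribosomal share as covariate, 4 of the 10 were lower and 1 higher. The added lower genes were Cdkn2c in all of these fits and Rbl1, or Rbl2 with the covariate. Of all genes 2759, 2042 and 2482 were lower and 2478, 1741 and 2673 higher in these fits, in this order. Both Cdkn1a and Ccnd1 also fell by more than 1 log2 unit, as did 3.08% of all tested genes, while 3.97% rose and 7.05% changed in either direction by that much. The groups did not overlap for 7 of the 10 genes, 6 of them lower and 1 higher in the knockout, against 36.2% of all tested genes, 18.0% lower and 18.3% higher. The median log2 fold change of the 10 genes was -0.27, against -0.0037 over all tested genes.

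**Figure D1:**
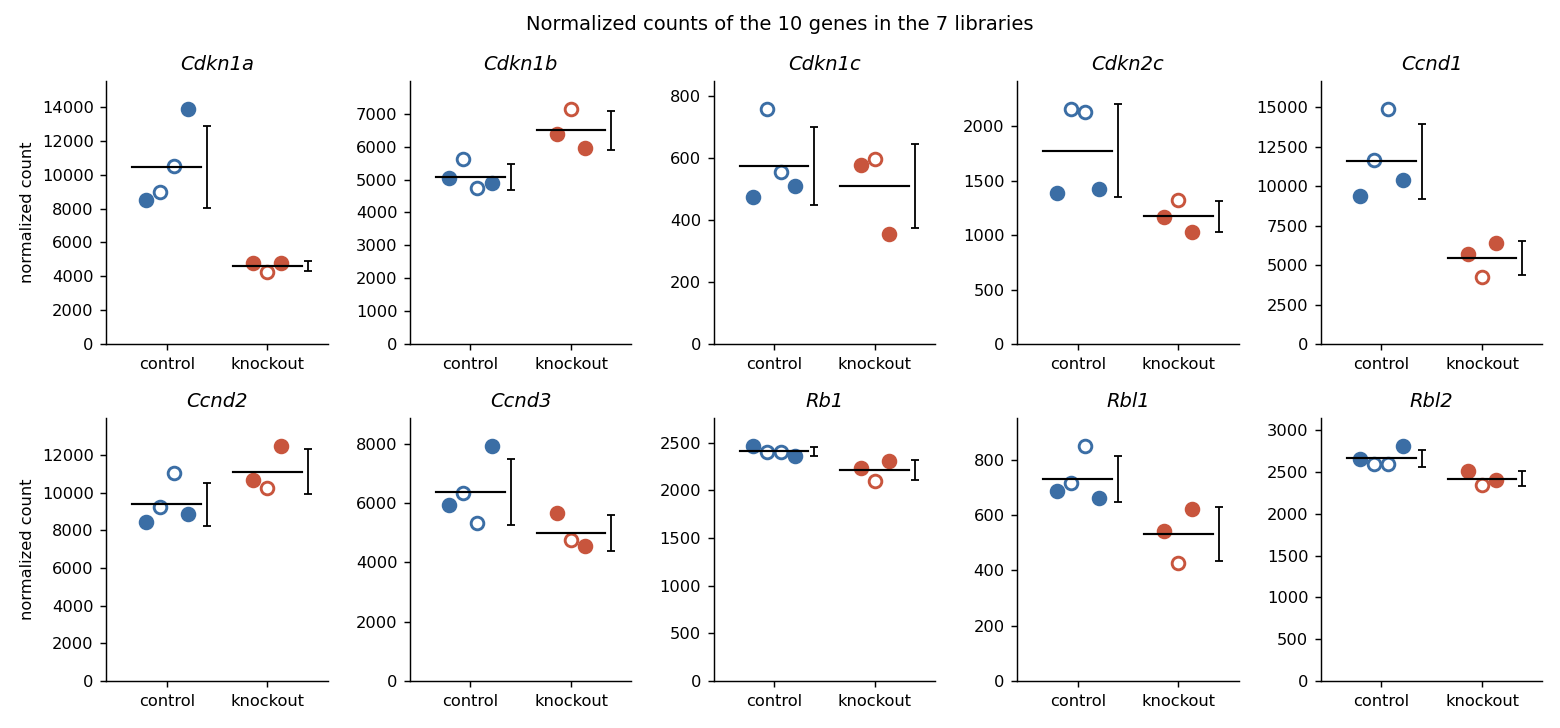
Normalized counts (vertical axes, each starting at 0) of the 10 genes in 4 control and 3 knockout libraries, 1 point per library, with filled points for a ribosomal share above 10% and open points for one below it. Horizontal lines are group means and bars beside them the SD, and the groups are apart for Cdkn1a, Cdkn1b, Cdkn2c, Ccnd1, Rb1, Rbl1 and Rbl2.

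Cdkn1a, which encodes p21, fell most among the 10. It lies on chromosome 17 of GRCm38 from 29090979 to 29100722. Control replicates 1 to 4 had 8497, 8999, 10523 and 13855 normalized counts, and knockout replicates 1 to 3 had 4817, 4281 and 4765. Even the lowest control was far above the highest knockout library, and the knockout values lay closer together than those of the controls. Knockouts reached 44.1% of the controls on average, 4621 ± 296 (SD, n = 3 libraries) against 10468 ± 2417 (SD, n = 4). Its log2 fold change was -1.18 (95% interval -1.58 to -0.78, adjusted p = 0.00422, edgeR's QL test). Leaving out single libraries gave values from -1.26 to -0.99, the last without control replicate 4. Within the libraries of high and of low ribosomal share it was -1.24 and -1.21.

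The other Cip/Kip gene that changed, Cdkn1b, went the opposite way. It encodes p27 and lies on chromosome 6 from 134920401 to 134925513. Its normalized counts were 5035, 5623, 4749 and 4895 in controls 1 to 4, against 6377, 7134 and 5969 in knockouts 1 to 3. All knockout libraries were above all controls, though by a small margin between control replicate 2 and knockout replicate 3. On average the knockouts reached 128% of the controls, a log2 fold change of 0.36 (95% interval 0.16 to 0.55, adjusted p = 0.0217, edgeR's QL test). This call was lost without knockout replicate 2, the library with the highest value, where the log2 fold change was 0.28 (adjusted p = 0.0763, edgeR's QL test). Within libraries of high and of low ribosomal share the log2 fold change was 0.29 and 0.44.

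Cdkn1c, which encodes p57 and is an imprinted gene on chromosome 7 (143458339 to 143461050), was the least expressed of the Cip/Kip genes. It had 474, 758, 554 and 512 normalized counts in controls 1 to 4, against 579.5, 597 and 354 in knockouts 1 to 3. The groups overlapped, with the lowest value in knockout 3 and the highest in control 2. Its log2 fold change of -0.17 had a 95% interval from -0.71 to 0.36, which spans both directions (adjusted p = 0.638, edgeR's QL test). Without knockout replicate 3, its lowest library, the log2 fold change was 0.04.

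RefSeq promoters of the Cip/Kip genes that changed in opposite directions, and of the INK4 gene described next, are shown because KLF factors are known to bind GC-rich DNA and CACCC-type boxes. Each runs from 250 bases before to 50 bases after a transcript start on GRCm38.p6, 5′ to 3′ on the strand of the gene. Capitals mark CACCC and CCGCCC in either orientation, the latter reading GGGCGG and the former GGGTG on the other strand.
Cdkn1a, first start (chr17:29090729-29091028): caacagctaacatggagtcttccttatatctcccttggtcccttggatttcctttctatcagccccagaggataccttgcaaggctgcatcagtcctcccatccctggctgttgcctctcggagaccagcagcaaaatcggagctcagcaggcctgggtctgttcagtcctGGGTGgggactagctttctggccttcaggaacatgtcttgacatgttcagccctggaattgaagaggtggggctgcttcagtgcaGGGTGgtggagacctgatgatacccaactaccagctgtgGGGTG
Cdkn1a, second start (chr17:29093519-29093818): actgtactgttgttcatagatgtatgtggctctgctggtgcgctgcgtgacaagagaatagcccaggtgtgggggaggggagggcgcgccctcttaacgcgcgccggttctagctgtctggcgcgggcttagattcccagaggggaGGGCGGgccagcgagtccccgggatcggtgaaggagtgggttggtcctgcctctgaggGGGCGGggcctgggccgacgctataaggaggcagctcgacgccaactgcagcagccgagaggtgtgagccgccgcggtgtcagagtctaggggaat
Cdkn1b (chr6:134920151-134920450): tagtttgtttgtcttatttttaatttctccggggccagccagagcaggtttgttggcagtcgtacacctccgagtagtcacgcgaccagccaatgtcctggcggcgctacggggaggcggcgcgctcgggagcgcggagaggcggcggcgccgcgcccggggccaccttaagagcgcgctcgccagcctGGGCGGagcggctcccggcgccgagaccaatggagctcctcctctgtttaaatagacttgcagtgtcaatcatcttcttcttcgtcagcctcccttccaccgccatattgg
Cdkn2c, first start (chr4:109666707-109667006): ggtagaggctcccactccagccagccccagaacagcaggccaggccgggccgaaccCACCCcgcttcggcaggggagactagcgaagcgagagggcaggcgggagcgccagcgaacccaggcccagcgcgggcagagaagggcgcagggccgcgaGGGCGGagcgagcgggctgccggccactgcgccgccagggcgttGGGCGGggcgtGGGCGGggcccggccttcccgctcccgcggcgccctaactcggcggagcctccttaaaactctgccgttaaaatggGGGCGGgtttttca
The Cdkn1a window at the first start held 3 CACCC boxes and 0 CCGCCC boxes, that at the second start 0 and 2. The Cdkn1b window held 0 and 1, and that of Cdkn2c 1 and 4. A second Cdkn2c window (chr4:109665323-109665622), not printed, held 1 and 0. Both Ccnd3 windows held 3 and 2, the Rbl1 window 1 and 1 and the Rbl2 window 2 and 1, none of them printed. No window was found for Cdkn1c, Ccnd1, Ccnd2 and Rb1. Among all 32851 RefSeq promoter windows of this length, 57.5% held at least 1 CACCC and 35.7% at least 1 CCGCCC, so a match is common. The E2F-type letters searched (TTTCCCGC or TTTGGCGC, either strand) were in none of the windows found for Cdkn1a, Cdkn1b, Cdkn2c, Ccnd3, Rbl1 and Rbl2. They are in 1.07% and 0.514% of all windows. Other E2F-type letters were not searched for, among them TTTCGCGC, which the Rbl1 window holds. The CHR-type letters TTTGAA were in the Rbl2 window alone among these 6 genes, against 17.9% of all windows. These matches describe letters and not binding.

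Cdkn2c, the INK4 inhibitor gene among the 10, lies on chromosome 4 from 109660876 to 109667189. Its normalized counts were 1388, 2155, 2129 and 1420.0 in controls 1 to 4, against 1165, 1320.4 and 1034 in knockouts 1 to 3. The controls fell into a higher and a lower pair, and every knockout library was below both pairs. The log2 fold change was -0.60 (95% interval -1.05 to -0.15), and it missed the threshold after adjustment (adjusted p = 0.0616, edgeR's QL test). With the replicate number as a block it passed, at -0.68 (adjusted p = 0.0360, edgeR's QL test). It also passed without control replicate 1, at -0.68 (adjusted p = 0.0386, same test of edgeR), with DESeq2 (adjusted p = 0.0178), with upper quartile factors (0.0477) and with the ribosomal share as covariate (0.0410). The pairs of controls followed the ribosomal share, with averages of 1404 normalized counts in controls of high share and 2142 in those of low share, and of 1099 and 1320.4 for knockouts. Cdkn1c showed the same order in both groups. Within the libraries of high share the log2 fold change of Cdkn2c was -0.38, and within those of low share -0.71.

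Among the D cyclins, Ccnd1 fell and the other genes did not pass the test. Ccnd1 (chromosome 7, 144929931 to 144939925) had 9384, 11661, 14887 and 10398 normalized counts in controls 1 to 4, against 5712, 4284 and 6384 in knockouts 1 to 3. The lowest control was well above the highest knockout library, and control replicate 3 was highest. Knockouts reached 47.1% of the controls on average, a log2 fold change of -1.09 (95% interval -1.54 to -0.63, adjusted p = 0.00850, edgeR's QL test). Without control replicate 3, the library richest in microglia markers, it was -0.94 (adjusted p = 0.00952, edgeR's QL test). It was -0.73 within the libraries of high ribosomal share and -1.65 within the 3 libraries of low share. Of the 10 genes Ccnd1 alone passed within a class, that of high share (adjusted p = 0.0147, edgeR's QL test), where Cdkn1a had an adjusted p of 0.0582 and Cdkn1b of 0.0663.

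Ccnd2 lies on chromosome 6 from 127125162 to 127152193. Its counts after normalization were 8444, 9274, 11045 and 8858 in controls 1 to 4, against 10658, 10236 and 12495 in knockouts 1 to 3. Control replicate 3 was above 2 of the 3 knockout libraries, and the other controls were below all of them. The log2 fold change was 0.24 (95% interval -0.02 to 0.50, adjusted p = 0.159, edgeR's QL test). Without control replicate 3 it was 0.33 and passed (adjusted p = 0.0410, edgeR's QL test), while within the libraries of low ribosomal share, which include that control, it was -0.0077.

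Ccnd3, the D cyclin gene with the lowest level per length, lies on chromosome 17 from 47505051 to 47599691. Its normalized counts were 5939.6, 6341, 5340.2 and 7937 in controls 1 to 4, against 5679.9, 4772 and 4541 in knockouts 1 to 3. Knockout replicate 1 was above control replicate 3, so the groups overlapped. A log2 fold change of -0.36 (95% interval -0.69 to -0.02) did not pass after adjustment (adjusted p = 0.117, edgeR's QL test). Without control replicate 4, the highest library, it was -0.21.

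**Figure D2:**
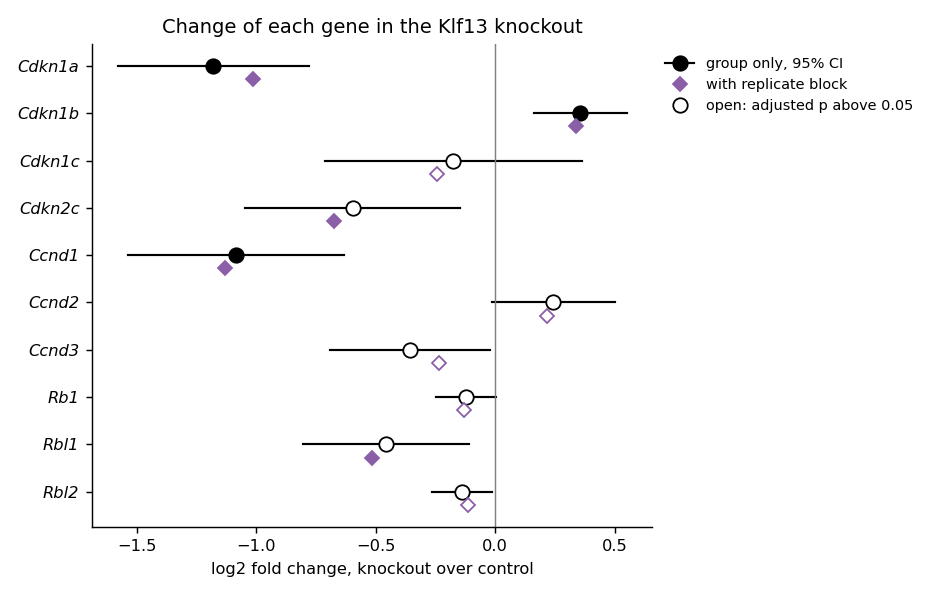
Log2 fold changes of the 10 genes, knockout over control (horizontal axis), with 95% intervals from the fit with the group alone (circles) and the values with the replicate number as a block (diamonds). Filled symbols have an adjusted p of at most 0.05. Cdkn1a, Ccnd1 and Cdkn1b pass in both fits, Cdkn2c and Rbl1 with the block alone.

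Levels per length changed their order between the groups. In the controls Cdkn1a had the highest level, 107 ± 24.7 RPKM (SD, n = 4 libraries), followed by Ccnd1 at 56.0 ± 11.6, with no overlap between them. Cdkn1b at 25.4, Ccnd2 at 22.7, Ccnd3 at 16.6 and then Cdkn2c came next, and each of these overlapped its neighbour. Below them stood Rb1 at 9.10, Rbl2 at 8.03, Cdkn1c at 6.41 and Rbl1 at 2.77 RPKM, of which Rbl2 and Cdkn1c overlapped. In the knockouts Cdkn1a was still first, at 47.3 ± 3.03 RPKM (SD, n = 3). Cdkn1b at 32.5, Ccnd2 at 26.9 and Ccnd1 at 26.4 RPKM followed with overlap between neighbours. Ccnd1 exceeded Cdkn1b and Ccnd2 in every control. In the knockouts it was above Ccnd2 in replicates 1 and 3 (27.6 against 25.8 and 30.8 against 30.2 RPKM) and above Cdkn1b in replicate 3 alone, and in replicate 2 it was below both.

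The mix of D cyclins and of Cip/Kip inhibitors was compared as shares of their summed level, and no share passed the test. Ccnd1 made up 55.9%, 59.2%, 63.9% and 54.5% of the summed D cyclin level in control replicates 1 to 4 and 40.5%, 35.8% and 42.3% in knockout replicates 1 to 3. Ccnd2 made up 23.2% to 25.2% in controls and 37.8% to 42.8% in the knockouts. The share of Ccnd3 overlapped, at 17.7% ± 4.17 (SD, n = 4) and 19.7% ± 3.09 (SD, n = 3), and its small difference changed sign when lengths were not taken into account. Cdkn1a made up 71.6% to 82.5% of the summed Cip/Kip level in controls and 50.9% to 59.1% in the knockouts, and Cdkn1b 14.2% to 21.8% and 36.1% to 41.4%. Of 6 shares tested, those of Ccnd1, Ccnd2, Cdkn1a and Cdkn1b had a two-sided exact permutation p of 0.0571 and an adjusted p of 0.0857. With 4 against 3 libraries, 0.0571 is the smallest p of this form of the test, which counts the smaller tail for both sides. The shares within a family sum to the whole and so are not independent of each other. The summed levels themselves were lower in the knockouts, at 69.5% of the control mean for the D cyclins and 61.5% for the Cip/Kip inhibitors.

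**Figure D3:**
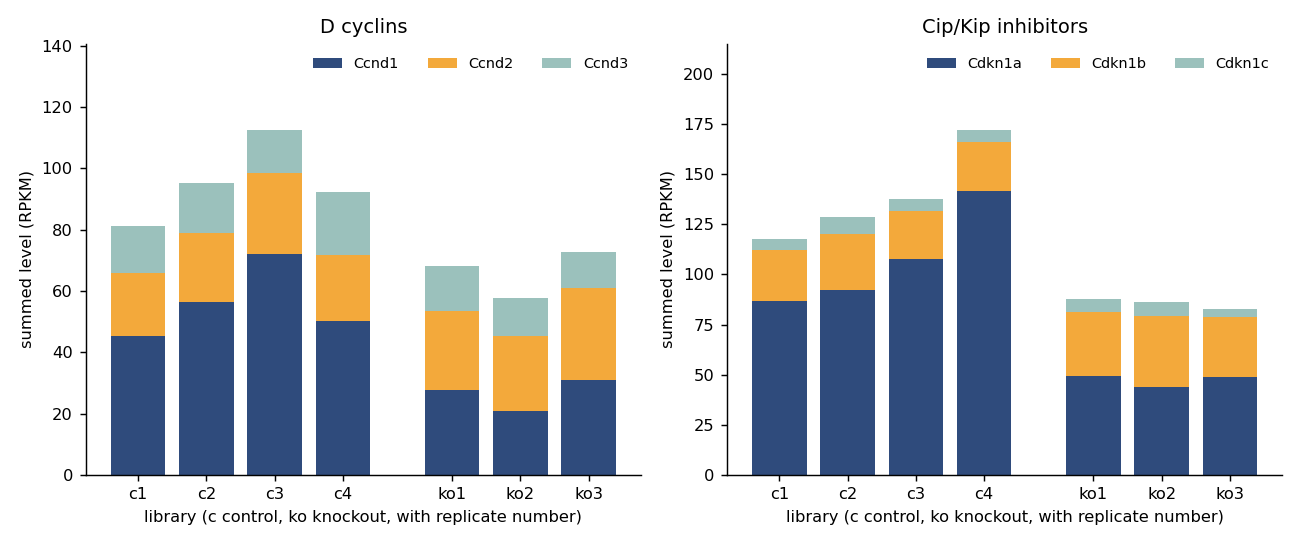
Summed level per gene length (RPKM, vertical axes from 0) of the D cyclins and of the Cip/Kip inhibitors in each library, stacked by gene. Ccnd1 and Cdkn1a lose height in the 3 knockout libraries, and Ccnd2 and Cdkn1b take a larger share of shorter bars.

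No pocket protein gene passed edgeR's test with the group alone. Rb1, which encodes the retinoblastoma protein, is on chromosome 14 (73183673 to 73325822) and had 2464, 2404, 2403 and 2354 normalized counts in controls 1 to 4, against 2233, 2096 and 2309 in knockouts 1 to 3. Both groups were tight, and the lowest control was just above the highest knockout library. Knockouts kept 92.0% of the control level (log2 fold change -0.12, 95% interval -0.25 to 0.0041, adjusted p = 0.149, edgeR's QL test). Rbl2, which encodes p130, the pocket protein typical of resting cells, lies on chromosome 8 from 91070057 to 91123844. Normalized counts of 2653, 2600.4, 2596 and 2813 in controls 1 to 4 and of 2515, 2348 and 2403 in knockouts 1 to 3 were again without overlap, with a log2 fold change of -0.14 (95% interval -0.26 to -0.01, adjusted p = 0.107, edgeR's QL test). With the ribosomal share as covariate Rbl2 passed, at -0.17 (adjusted p = 0.0428, edgeR's QL test).

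Rbl1 encodes p107, the pocket protein typical of cycling cells, and is itself known as an E2F target. It lies on chromosome 2 from 157145893 to 157204534. Normalized counts were 689, 717, 850.4 and 663 in controls 1 to 4, against 543, 428 and 622 in knockouts 1 to 3. Knockout replicate 2 was lowest and control replicate 3 highest, with no overlap between the groups. Its log2 fold change of -0.46 (95% interval -0.81 to -0.11) missed the threshold (adjusted p = 0.0617, edgeR's QL test). With the replicate number as a block it was -0.51 and passed (adjusted p = 0.0315, edgeR's QL test), and so it did without knockout replicate 3, at -0.58 (adjusted p = 0.0451, edgeR's QL test). It also passed with DESeq2 (adjusted p = 0.0190), but not with the ribosomal share as covariate (adjusted p = 0.0726 by edgeR). Within libraries of high and of low ribosomal share it was -0.23 and -0.89. With the block, 4 of the 10 genes were lower and 1 higher, beside 2042 lower and 1741 higher genes of all 18352.

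Exons of 7 of the 10 genes overlap those of annotated genes on the opposite strand, and whether strand was used in counting is not stated. The overlap takes 4.05% to 30.7% of the exon bases of these genes, most for Cdkn1c (with Gm44732, which has 0 counts in all libraries), Ccnd1 (1100 bases with LTO1, which has 6549 counts in all) and Rbl2 (with Aktip and Gm45464). Cdkn1b, Cdkn2c and Rbl1 have no such overlap.

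Around the 10 genes, 7 lists of 79 genes of G1 control were described, of which 78 genes were tested. E2F and DREAM target genes, which encode replication and mitosis proteins, all had negative log2 fold changes. Of 18 such genes 14 were lower and 0 higher by edgeR (15 and 0 at an unadjusted p under 0.05, 15 and 0 by DESeq2, 14 and 0 by limma), against 12.2% and 11.6% of all tested genes. At the unadjusted p 3377 of all 18352 genes were lower and 3332 higher. The 18 genes' median log2 fold change was -0.72. Top2a, the topoisomerase of dividing cells, fell from 8219 ± 644 normalized counts (SD, n = 4) to 4060.2 ± 560 (SD, n = 3), which is a log2 fold change of -1.02 (adjusted p = 0.00120, edgeR's QL test). Mki67, which encodes the proliferation antigen Ki-67, fell by 0.86 on the log2 scale, and Ccna2, cyclin A2, by 0.89. Pcna, the sliding clamp of DNA polymerase, fell by 0.44. Mcm6, Mcm7, Tyms and Tk1 did not pass, with log2 fold changes from -0.37 to -0.14, but with the replicate block Mcm6 did, at -0.38 (adjusted p = 0.0278, edgeR's QL test), which makes 15 lower. Without single libraries between 12 and 14 of these genes were lower.

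Of 10 E2F and DP factor genes, E2f2, E2f7, E2f8 and Tfdp2 were lower, 4 in all, and 0 higher by edgeR (6 and 0 at an unadjusted p under 0.05, 5 and 0 by DESeq2, 4 and 0 by limma), against 12.2% and 11.6% of all tested genes. With the ribosomal share as covariate 4 were lower and 1 higher, and in libraries of high share 3 and 0. E2f7 and E2f8 encode the atypical E2F repressors of S and G2 phase. E2f7 had 361, 357, 378 and 330.4 normalized counts in controls 1 to 4, against 200.4, 132 and 193 in knockouts 1 to 3, a log2 fold change of -1.03 (adjusted p = 0.00573, edgeR's QL test). Every control was far above every knockout library. E2f8 fell by 0.62 on the log2 scale, E2f2 by 0.83 and Tfdp2, a dimerization partner of E2Fs, by 0.52. E2f4 and E2f5, the E2Fs that pair with p107 and p130 in resting cells, had log2 fold changes of 0.04 and 0.06, and E2f1 of -0.57 with overlap between the groups (adjusted p = 0.197, edgeR's QL test). These 4 calls held without any single library and with the replicate block, where E2f3 also passed, at -0.23 (adjusted p = 0.0463, edgeR's QL test).

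The list of the MuvB core, which forms the DREAM complex with p107 or p130, also held Mybl2 and had 2 lower and 0 higher genes of 6 by edgeR (3 and 1 at an unadjusted p under 0.05, 2 and 1 by DESeq2, 2 and 0 by limma), against 12.2% and 11.6% of all tested genes. Mybl2 encodes B-Myb, which is no part of DREAM but takes the place of the pocket proteins on MuvB in cycling cells, and fell by 0.92 on the log2 scale (adjusted p = 0.00582, edgeR's QL test). Lin54, the DNA-binding subunit, was lower by 0.30 on that scale, a call that was lost without any of the 7 libraries (adjusted p from 0.0529 to 0.114) and with the replicate block (adjusted p = 0.0664, edgeR's QL test). Rbbp4 was the most abundant and had a log2 fold change of 0.0016.

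Among kinases, E cyclins and other INK4 inhibitors, 3 of 9 genes were lower and 1 higher, against 12.2% and 11.6% of all tested genes. The counts were 4 and 1 by DESeq2, 2 and 1 with the replicate block, and 0 and 0 by edgeR in libraries of high ribosomal share. Cdk4, the kinase partner of D cyclins, had 10055, 9842, 9887 and 9432 normalized counts in controls 1 to 4, against 12479, 11597 and 11315 in knockouts 1 to 3. All knockout libraries were above all controls, and Cdk4 rose by a log2 fold change of 0.27 (adjusted p = 0.0138, edgeR's QL test). Cdk6, its relative, varied widely within both groups and had a log2 fold change of -0.16 (adjusted p = 0.757, edgeR's QL test). Ccne1 and Ccne2, the E cyclins that follow D cyclins at the G1/S transition, fell by 0.52 and 0.53 on the log2 scale. The call of Ccne1 was lost without knockout replicate 2 (adjusted p = 0.0535, edgeR's QL test). Cdkn2a, the gene of p16 and ARF, had 132, 195, 349 and 237 normalized counts in controls 1 to 4, against 103, 91.4 and 92.9 in knockouts 1 to 3, a log2 fold change of -1.26 (adjusted p = 0.0265, edgeR's QL test). That call was lost with the replicate block (adjusted p = 0.0539) and without control replicate 4 or any knockout replicate, where the largest adjusted p of edgeR's QL test was 0.0915. Without knockout replicate 2, only Ccne2 was lower in this list.

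**Figure D4:**
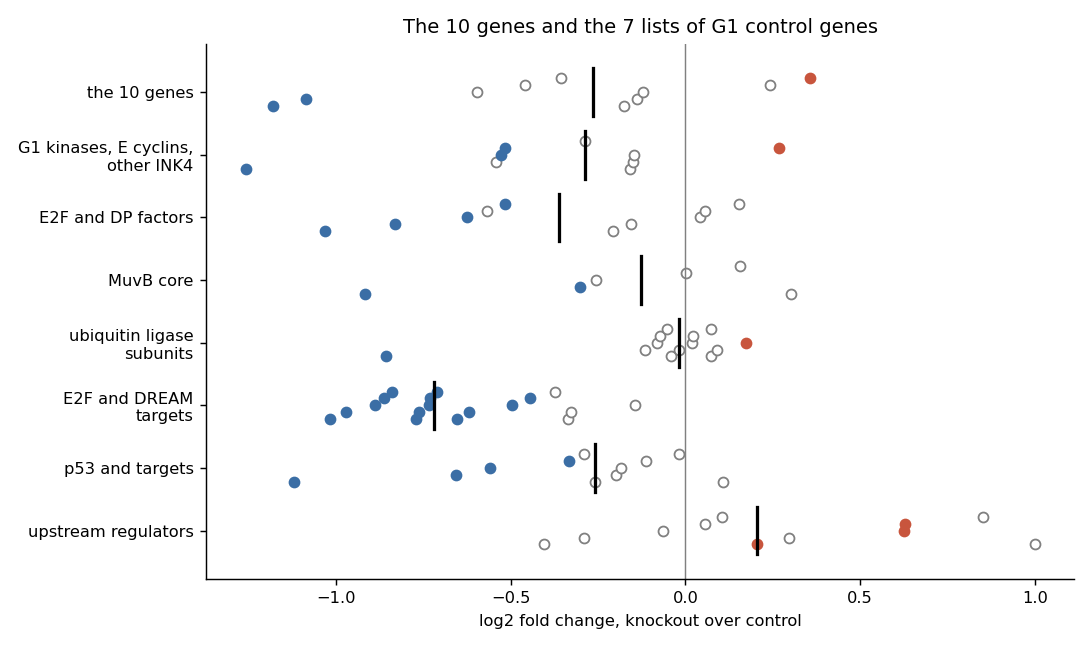
Log2 fold changes, knockout over control (horizontal axis), of the 10 genes and of the 78 tested genes in 7 lists of G1 control, 1 point per gene. Filled points have an adjusted p of at most 0.05, blue for lower and red for higher in the knockout, and black bars are medians, which lie at -0.72 for E2F and DREAM targets and at 0.21 for upstream regulators.

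Cdkn1a is a classic target gene of p53, and other genes of the p53 list were set beside it. Of 11 genes 4 were lower and 0 higher by edgeR (5 and 0 at an unadjusted p under 0.05, 5 and 0 by DESeq2, 4 and 0 by limma), against 12.2% and 11.6% of all tested genes, with a median log2 fold change of -0.26. Mdm2, the ubiquitin ligase that p53 induces as its own inhibitor, had 5363, 5310.3, 5648 and 5915 normalized counts in controls 1 to 4, against 3977, 3523 and 3823 in knockouts 1 to 3. Its libraries were apart, with a log2 fold change of -0.56 (adjusted p = 0.00168, edgeR's QL test). Ccng1, cyclin G1, fell from 13658 ± 933 (SD, n = 4) to 8663 ± 992 normalized counts (SD, n = 3), to 63.4% of the control mean. Phlda3, an inhibitor of AKT, had a log2 fold change of -1.12 (adjusted p = 0.0285, edgeR's QL test). Its call was lost without control replicate 2 or 4 or knockout replicate 1 or 3 (adjusted p up to 0.0975), and that of Trp53inp1, at -0.33, without any library but control replicate 3 (adjusted p up to 0.111, same test of edgeR) and with the replicate block (adjusted p = 0.0788). Without control replicate 2, knockout replicate 1 or knockout replicate 3, 2 genes of the list were lower. Sesn2, a stress-induced p53 target, passed with the replicate block, at -0.31 (adjusted p = 0.0193, edgeR's QL test), against -0.26 without it (adjusted p = 0.0609). Trp53 itself, the gene of p53, had a log2 fold change of 0.11 (adjusted p = 0.351, edgeR's QL test), and Bax, a p53 target of the apoptosis pathway, of -0.02.

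The last list held upstream regulators of D cyclin and Cip/Kip genes. Of 11 tested genes 3 were higher and 0 lower by edgeR (5 and 0 at an unadjusted p under 0.05, 5 and 0 by DESeq2, 3 and 0 by limma), against 11.6% and 12.2% of all tested genes. Myc, whose product is known to repress Cdkn1a and to act on D cyclins and Cdk4, had 3051, 2958, 2277 and 2504 normalized counts in controls 1 to 4, against 4490.1, 4125 and 3903 in knockouts 1 to 3. Every knockout library was above every control, at 155% of the control mean and a log2 fold change of 0.63 (adjusted p = 0.00814, edgeR's QL test). Mycn rose by a log2 fold change of 0.63 and Foxo3, a forkhead factor known to induce Cdkn1b, by 0.21, both near the threshold (adjusted p = 0.0486 and 0.0454, edgeR's QL test). Leaving out a library raised these to at most 0.168 and 0.145, and Foxo3 did not pass with the replicate block (adjusted p = 0.0845, same test of edgeR). With that block Id4 and Hes5, genes of factors that hold back differentiation, passed at 0.81 and 0.85 (adjusted p = 0.00364 and 0.0254, edgeR's QL test), so that 4 genes were higher. Without it their log2 fold changes were 1.00 and 0.85 (adjusted p = 0.0880 and 0.0650, edgeR's QL test). With the ribosomal share as covariate 4 genes were higher and 1 lower, and in libraries of high share 1 and 1, the lower gene being Tcf7l2 in both. Myc alone of the list was higher without control 1 or 4 or knockout 1 or 2. Tcf7l2 and Id2, both abundant, had log2 fold changes of -0.29 and 0.11.

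Ubiquitin ligase subunits that act on p27, p21 or D cyclins mostly did not pass, at a median of -0.02 in log2 fold change, with 1 lower and 1 higher gene of 13, against 12.2% and 11.6% of all tested genes (2 and 1 by DESeq2, 1 and 0 with the replicate block). Dtl, the substrate receptor that marks p21 for destruction in S phase, fell from 642 ± 58.9 normalized counts (SD, n = 4) to 355 ± 72.0 (SD, n = 3), which is a log2 fold change of -0.86 (adjusted p = 0.00897, edgeR's QL test). Skp2 and Cks1b, which select p27 for destruction, had log2 fold changes of 0.02 and -0.05. Rbx1 was higher by 0.17 on that scale (adjusted p = 0.0440, edgeR's QL test) and did not pass with the replicate block (0.0750) or without 6 of the 7 libraries in turn, all but control replicate 4 (up to 0.123).

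The gene whose log2 level followed Ccnd1 most closely over the 7 libraries, among 9927 genes with a mean of at least 10 CPM, was Lin54 (Pearson r = 0.993), and Hells, a chromatin remodeler of cycling cells, came next (r = 0.991). Rbl1 ran with Zranb3 (r = 0.994) and Cdkn2c with Chaf1a (r = 0.993). Ccnd2 had Vcam1 closest to it, at r = 0.979, and Cdkn1a had Eif2ak1, at r = 0.997. Closest to Cdkn1b was Ppp1r26 (r = 0.998), to Ccnd3 Etv4 (r = 0.990), to Rb1 Dicer1 (r = 0.992) and to Rbl2 Pibf1 (r = 0.997). Cdkn1c had the loosest best match, D8Ertd738e at r = 0.958. The points are the libraries of both groups, which differ in depth, and the best of many genes is always high, so the values are a description.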

How the data were processed

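RNA from 7 cultures was sequenced as paired reads on an Illumina instrument. The authors trimmed reads (Trimmomatic 0.36), mapped them (STAR 2.5.2b) and counted unique exon hits (Subread 1.5.2), on GRCm38 per the submitters' notes. The deposited values are raw counts per gene, with exonic lengths. Strand setting and annotation release are not given in the sources used here. A table of gene names held 48970 of 49315 identifiers, and exon overlaps were read from GENCODE M21.

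The counts went into edgeR 4.0.16 under R 4.3.3, with filterByExpr by group, TMM factors, a robust quasi-likelihood fit with the group as only term, and Benjamini-Hochberg adjustment over 18352 genes. Tests were two-sided, with an adjusted p of 0.05 as threshold. The fit was also run on simulated counts, which lacked the replicate and ribosomal share differences of these libraries. A normalized count is the count scaled to the mean TMM-scaled library size, and RPKM are also divided by exonic length. Named were all 10 genes, of each pathway list up to 5 genes with the highest counts and every gene that passed with a change of at least 1 log2 unit, Klf13, markers, and genes closest to each of the 10 by Pearson r (of 3 each, the first is given, and for Ccnd1 the second). Other genes, such as those that passed with smaller changes, were chosen after their values were seen. The 10 genes and the lists were chosen with earlier results of these data known.

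Deviations from the group means over all tested genes correlated at 0.183, 0.579 and 0.370 between same-numbered control and knockout samples. All were above 0.1, so the replicate number was used as a block, but in an alternative fit only. Other pairs ran from -0.643 to 0.322. Of these, control 2 and knockout 1 (0.123) and control 4 and knockout 1 (0.322) were also above 0.1. The latter was above the lowest same-numbered pair. The labels do not say what a pair shares. Alternatives were DESeq2 1.42.0, limma 3.58.1 (voom), other scalings and filters, the replicate block, the ribosomal share as covariate or class, and each library left out. A count of 0 allows up to 3 counts, at most 1.22e-05 percent of a library, for counting error only. Protein sequences were not used here.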

Additional observations from a re-analysis of the deposited data

Results flagged for a closer look

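Among 106 values checked for a control library far from the others, 4 were flagged, and chance flags about 1 in 20 such groups. Summed microglia and macrophage marker levels were 782 RPKM in control replicate 3 against 179 to 195 in the other controls. Lin52, a MuvB subunit, had 503 normalized counts in control replicate 3 against 613 to 618. Skp1a, an SCF ligase subunit listed as Skp1, had 15101 normalized counts in control replicate 4 against 12969 to 13240.1. Mcm7, a helicase subunit, had 2621 normalized counts in control replicate 4 against 3057 to 3079. No value of the 10 genes was among them.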

How the results depend on the processing

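Over 19 alternatives each, 190 of 209 log2 fold changes of the 10 genes and Klf13 kept their direction and side of the threshold, 7 lost and 10 gained a call, and 2 reversed, Cdkn1c (0.043 without knockout replicate 3, within a range of -0.31 to 0.043 over single libraries left out) and Ccnd2 in libraries of low ribosomal share (-0.0077). Of the 10 genes, 4 were lower with DESeq2, with the replicate block and with the ribosomal share as covariate, 1 in libraries of high share and 0 in those of low share, and 0 were higher in either class or with a change of 1 log2 unit required. All genes lower and higher numbered 1030 and 658 in the high class and 565 and 729 with that change required. They numbered 2759 and 2478 with DESeq2, 2042 and 1741 with the block, and 2482 and 2673 with the covariate. In the low class, with 2 controls and 1 knockout whose spread is assumed to be that of the controls, edgeR called 0 and 0 of all genes, while 1498 and 1236 had an unadjusted p under 0.05, among them 4 and 0 of the 10 genes and 28 and 0 pathway genes, of which 0 were called. Pathway genes lower and higher numbered 28 and 5, and 33 and 8 with DESeq2 and 21 and 1 in the high class. Those higher numbered 3 with RLE factors, 2 with total counts and 2 without a filter, beside 2004, 1870 and 1535 of all genes. Without single libraries, 0 to 2 of the 10 genes were higher (0 without knockout 2, 2 without control 3) and 2 to 3 lower, 850 to 1843 of all genes were higher and 1254 to 2032 lower (fewest higher without knockout 2, fewest lower without knockout 1), and 2 to 4 pathway genes were higher and 22 to 27 lower. From CPM, the share of Ccnd3 differed by -0.33 and that of Cdkn1b by 23.8 percentage points. Scalings and filters moved the median log2 fold change of all genes to at most 0.07. Among the 10 genes and the pathway lists, the replicate block changed the calls of Cdkn2c, Rbl1, Cdkn2a, Lin54, Rbx1, Trp53inp1, Foxo3, E2f3, Mcm6, Sesn2, Hes5 and Id4, as given above, and no others. The causes of these differences were not tested.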
